A study of Mus musculus with 2 samples.

Results

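The genes described here are 10 genes whose transcripts are commonly used to recognize nonclassical monocytes of the mouse, namely *Ace*, *Treml4*, *Ear2*, *Adgre4*, *Cd300e*, *Eno3*, *Fabp4*, *Gngt2*, *Nr4a1*, and *Hfe*. They were chosen by name, with earlier results of these data known. All 10 were found among the 20299 genes of the count matrix, and they were followed across the macrophage, neutrophil, and dendritic cell clusters of nephritic kidneys. Nephrotoxic nephritis (NTN) is a model of antibody-mediated glomerular injury. C57BL/6 mice aged 8 weeks were primed with 200 μg of sheep IgG in complete Freund's adjuvant and were given sheep nephrotoxic serum 4 days later, at 2 μL per g of body weight in the sample labels, while the study's methods give a larger volume. Kidneys were dissociated with liberase (0.2 mg/mL) at 37°C for 30 minutes, and single-cell transcripts were captured in droplets with a 3′ chemistry. One group was WT and the other *Vsir-/-*, which lacks the gene for the checkpoint molecule VISTA, and both had NTN, so no library came from a kidney without nephritis. There was 1 library per genotype, the number of mice behind each library is not given in the sources used here, and no test between genotypes was possible. By the labels, the WT library held sorted CD45+ cells and the *Vsir-/-* library held all kinds of kidney cells. The study's methods instead describe a CD45+ sort and refer to the cells of both genotypes as sorted immune cells. Genotype and cell selection therefore cannot be told apart in any comparison below, and which selection the *Vsir-/-* library had is unsure.

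Monocytes of the mouse come in a classical form, which is rich in Ly6C, expresses the chemokine receptor CCR2, and leaves the blood at sites of injury, and a nonclassical form, which is low in Ly6C and crawls along the inner wall of blood vessels. Nonclassical monocytes develop from classical monocytes, and this step needs the nuclear receptor NR4A1. In the kidney they are known for patrolling the capillaries of the glomerulus and the space around the tubules, where they survey the endothelium and can retain neutrophils.

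Among the 10 genes, *Nr4a1* encodes the factor this lineage depends on, and *Cd300e* an activating surface receptor. Their upstream sequences are shown because, in the WT library, *Nr4a1* was the least and *Cd300e* the most restricted to 1 cluster among the 10 genes. Both are the 250 bases before the transcription start, 5′ to 3′ on the strand of the gene, from RefSeq on build GRCm38.p6. The *Nr4a1* stretch is chr15:101266596-101266845 on the plus strand, with TGACG, the core of the cAMP response element, or its reverse complement in capitals. The *Cd300e* stretch is chr11:115062040-115062289 on the minus strand, with AGGAAG, a core bound by ETS factors such as PU.1, or its reverse complement in capitals.
Nr4a1: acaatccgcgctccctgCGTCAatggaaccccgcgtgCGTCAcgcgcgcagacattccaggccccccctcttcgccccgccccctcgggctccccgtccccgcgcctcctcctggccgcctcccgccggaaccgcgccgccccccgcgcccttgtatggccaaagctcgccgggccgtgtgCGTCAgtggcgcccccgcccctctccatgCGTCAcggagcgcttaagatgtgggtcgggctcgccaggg
Cd300e: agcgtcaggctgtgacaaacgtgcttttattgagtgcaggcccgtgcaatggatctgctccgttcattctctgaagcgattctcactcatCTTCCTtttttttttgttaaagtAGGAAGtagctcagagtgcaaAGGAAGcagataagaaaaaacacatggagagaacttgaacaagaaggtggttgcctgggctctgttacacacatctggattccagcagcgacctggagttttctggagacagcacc
The window searched was 300 bases, 250 before and 50 after the start, and RefSeq windows were at hand for 8 of the 10 genes, with 2 starts for *Ace* and none for *Fabp4* and *Gngt2*. The *Nr4a1* window held TGACG 4 times on either strand, whereas 20.8% of all 32851 windows held it at least once and 0.231% held it 4 times or more. The *Cd300e* window held TGACG 1 time, in small letters above, and the windows of the other genes did not hold it. The *Cd300e* window held AGGAAG 3 times, against 35.4% of windows with at least 1 match and 1.90% with 3 or more. AGGAAG was also found in the windows of *Ace*, *Hfe*, *Ear2*, *Treml4*, and *Adgre4*. The longer GAGGAAGT, which contains AGGAAG, was found in the *Adgre4* window and in 3.2% of all windows. AAAGGTCA, the element bound by NR4A1 as a monomer, was in no window of the 10 genes and in 1.51% of all windows, and TTNNGCAA, a form of the C/EBP element, was found for *Ear2* and *Adgre4* and in 10.8%. These matches describe the letters of the windows only.

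The WT library held 5470 cells and 32799550 unique molecular identifiers (UMIs), with a median of 4726.5 per cell. The *Vsir-/-* library held 1844 cells and 18601189 UMIs, with a median of 6673 per cell. *Vsir* itself had 4278 UMIs in the WT library and 8 in the *Vsir-/-* library, as the labels state, and 5 cell barcodes occurred in both. Cells carry the deposited cluster names. Of the 16 clusters, 5 were compared. "Other R2" (188 WT and 131 *Vsir-/-* cells) and "M2-like R2" (456 and 168) are macrophages regarded as infiltrating, "R1" (116 and 237) are regarded as kidney-resident macrophages, and the remaining ones are Neutrophil (524 and 158) and plasmacytoid dendritic cells, pDC (21 and 86). Levels are given as CPM, the UMIs of a gene per 1000000 UMIs of the same cells, with 95% Poisson intervals that cover counting error only. Because the clusters were built from these genes among others, their levels by cluster are a description.

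The cluster names were set against defining markers. R1 held the complement gene *C1qa* at 4570 CPM in the WT and 5366 CPM in the *Vsir-/-* library, whereas Other R2 held 3.12 and 25.9 CPM. M2-like R2 was rich in the classical monocyte genes *Ly6c2* (2972 and 1673 CPM) and *Ccr2* (912 and 931 CPM), which in Other R2 stood at 220 and 91.9 CPM and at 57.8 and 9.06 CPM. *S100a8* made up 121607 and 119598 CPM of the Neutrophil cluster. The pDC cluster held *Siglech*, a marker of plasmacytoid dendritic cells, at 200 and 205 CPM, but also the conventional dendritic cell gene *Cd209a* at 412 and 375 CPM and, in the *Vsir-/-* library, *Xcr1* at 190 CPM, so its name covers more than 1 kind of dendritic cell.

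All 10 genes reached their highest level of the 5 clusters in Other R2, in both libraries. Among all genes that could be ranked, 19.3% in the WT library and 20.2% in the *Vsir-/-* library were highest there. At least 4-fold above each of the other 4 clusters were 7 of the 10 genes in the WT library and 6 in the *Vsir-/-* library, against 0.340% and 0.409% of all genes. Because the genes were chosen with earlier results of these data known, these shares are a description only. Together the 10 genes made up 5677 CPM (95% interval 5547 to 5809) of Other R2 in the WT library and 6913 CPM (6729 to 7101) in the *Vsir-/-* library. Their sum in M2-like R2 was 1593 and 1516 CPM, and in the other 3 clusters it lay between 387 and 771 CPM.

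The contrast was sharpest for a surface receptor. *Cd300e* was at 382 CPM (349 to 418) in WT and 419 CPM (375 to 468) in *Vsir-/-* Other R2, and no other cluster of the 5 passed 14.4 CPM. The next cluster in order was R1 in both libraries, 26.6-fold (14.3 to 55.8) and 83.9-fold (42.1 to 196) lower. R1 held only 10 and 8 UMIs of the gene. Its interval overlapped that of Neutrophil in WT and that of pDC in *Vsir-/-* cells. In M2-like R2 the gene was at 10.2 and 3.58 CPM, and no UMI was found in WT pDC or *Vsir-/-* Neutrophil cells, which allows up to 11.3 and 3.86 CPM. Other R2 thus held 81.8% of all *Cd300e* UMIs of the WT library and 90.8% of those of the *Vsir-/-* library.

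*Treml4*, a receptor of the TREM family that binds dead cells, was at 375 and 453 CPM in Other R2. Its second cluster was M2-like R2 at 52.4 and 41.8 CPM, which put Other R2 7.16-fold (6.10 to 8.41) and 10.8-fold (8.36 to 14.2) above it. The remaining WT values were 37.9 CPM in Neutrophil, 24.5 CPM in R1, and 0 of the UMIs of pDC. In the *Vsir-/-* library, R1 and pDC were at 19.4 and 18.6 CPM, with overlapping intervals, and Neutrophil was at 3.86 CPM from 3 UMIs. *Adgre4*, an adhesion G protein-coupled receptor of the EGF-TM7 family, was at 360 and 475 CPM in Other R2 and at 76.0 and 81.8 CPM in M2-like R2. All other clusters of the 5 had at most 25.9 CPM of *Adgre4*.

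*Ace*, the angiotensin-converting enzyme that generates angiotensin II, was at 496 CPM (458 to 536) in WT and 456 CPM (409 to 506) in *Vsir-/-* Other R2. M2-like R2 followed with 96.3 and 56.1 CPM, a distance of 5.15-fold (4.54 to 5.84) and 8.12-fold (6.45 to 10.3). *Ear2*, a ribonuclease of the eosinophil-associated family, was at 540 and 563 CPM in Other R2 and at 96.7 and 124 CPM in M2-like R2. A list of 7 eosinophil genes, of which 4 were analysed here, summed to 3.90 CPM in WT and 0 in *Vsir-/-* Other R2. *Ear2* has near-identical paralogs, whose reads could have been counted as *Ear2*, and its values are uncertain to that extent.

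The intracellular proteins differed more among themselves. *Eno3*, the enolase isoform typical of muscle and a glycolytic enzyme, was at 484 CPM in WT and 709 CPM in *Vsir-/-* Other R2, 11.1-fold (9.45 to 13.2) and 20.8-fold (15.8 to 27.9) above M2-like R2. *Eno1*, the common isoform, had the opposite order, with 247 and 167 CPM in Other R2 and 430 and 295 CPM in M2-like R2. *Gngt2*, a gamma subunit of heterotrimeric G proteins first known from cone photoreceptors, was at 1583 and 2134 CPM in Other R2 and still at 685 and 667 CPM in M2-like R2. R1 followed with 214 and 274 CPM of *Gngt2*, and Neutrophil was lowest with 129 and 55.3 CPM.

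*Nr4a1* was at 922 CPM (870 to 976) in WT and 1200 CPM (1124 to 1279) in *Vsir-/-* Other R2. M2-like R2 had 437 and 445 CPM, only 2.11-fold (1.96 to 2.27) and 2.70-fold (2.45 to 2.97) lower. *Nr4a1* was also found in Neutrophil at 229 and 233 CPM and in pDC at 280 and 143 CPM, and R1 came last of the 5 clusters in both libraries, with 160 and 53.7 CPM. The relatives *Nr4a2* (39.0 and 42.7 CPM) and *Nr4a3* (21.9 and 25.9 CPM) in Other R2 are given without comparison of the genes. *Hfe*, the MHC class I-like protein that acts in iron sensing, was at 274 CPM (246 to 304) and 214 CPM (182 to 249) in Other R2. Its second cluster differed between the libraries, being M2-like R2 in WT at 82.9 CPM and pDC in *Vsir-/-* at 93.0 CPM, with *Vsir-/-* R1 at 78.1 CPM within overlapping intervals.

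*Fabp4*, a fatty acid-binding protein of macrophages, adipocytes, and capillary endothelium, had a sharp WT pattern and a diffuse *Vsir-/-* one. In WT cells it was at 261 CPM (234 to 291) in Other R2 and 13.9 CPM in M2-like R2, an 18.8-fold distance (14.3 to 25.2), with at most 9.67 CPM elsewhere among the 5 clusters. In *Vsir-/-* cells, Other R2 at 291 CPM (254 to 332) and R1 at 280 CPM (254 to 307) had overlapping intervals, at a ratio of 1.04 (0.883 to 1.22). The values of all genes and clusters are drawn in the plot of levels by cluster.

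**Figure D1:**
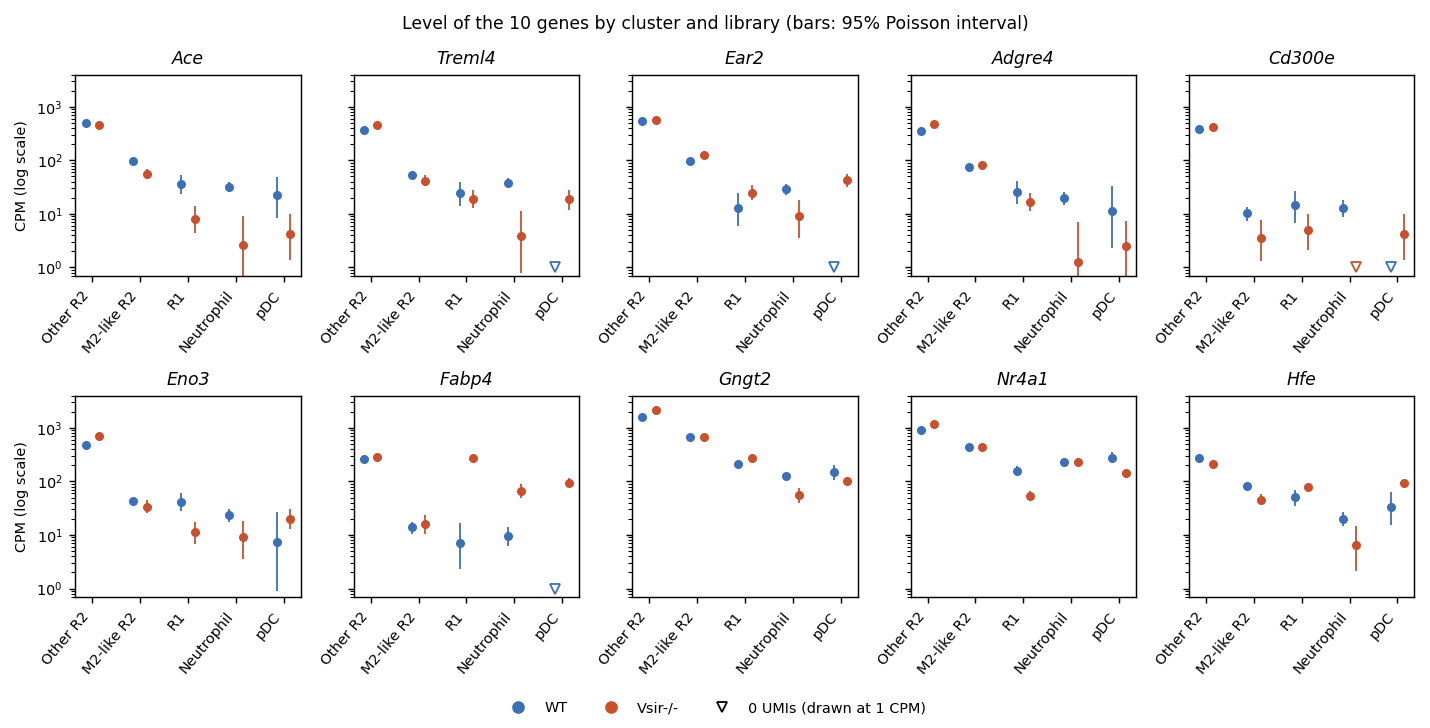
CPM on a log axis for the 10 genes in the 5 clusters, with WT in blue, *Vsir-/-* in red, 95% Poisson intervals as bars, and open triangles for 0 UMIs. Each gene is highest in Other R2 in both libraries, and *Fabp4* in *Vsir-/-* R1 is the one value that reaches the level of Other R2.

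Single cells of Other R2 carried many of the 10 genes at once. Before any adjustment for depth, the median cell held UMIs of 8 of the 10 genes in each library, 68.1% of WT and 69.5% of *Vsir-/-* cells held 8 or more, and 46 and 25 cells held all 10. Each cell was then thinned at random to 1000 UMIs, which left 180 WT and 127 *Vsir-/-* cells of Other R2. At this depth an Other R2 cell held a mean of 4.07 of the genes in the WT library (95% interval of counting 3.78 to 4.38) and 4.00 (3.66 to 4.36) in the *Vsir-/-* library.

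At equal depth, 76.7% (69.8% to 82.6%, Clopper-Pearson) of WT and 81.9% (74.1% to 88.2%) of *Vsir-/-* Other R2 cells held 3 or more of the genes. The share in M2-like R2 was 12.2% and 10.7%, in R1 2.75% and 1.89%, and in Neutrophil 2.19% and 1.96%. Of 947 WT and 72 *Vsir-/-* B cells 0 did, with upper bounds of 0.389% and 4.99%. B cells served for comparison as a type outside the myeloid lineage, although *Gngt2* and *Nr4a1* were found in them in both libraries and *Fabp4* in the *Vsir-/-* library. Their median depth was 3426 and 3596.5 UMIs against 5210 and 6093 UMIs in Other R2. Most Other R2 cells thus carried the genes jointly, as the distribution of genes per cell shows.

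**Figure D2:**
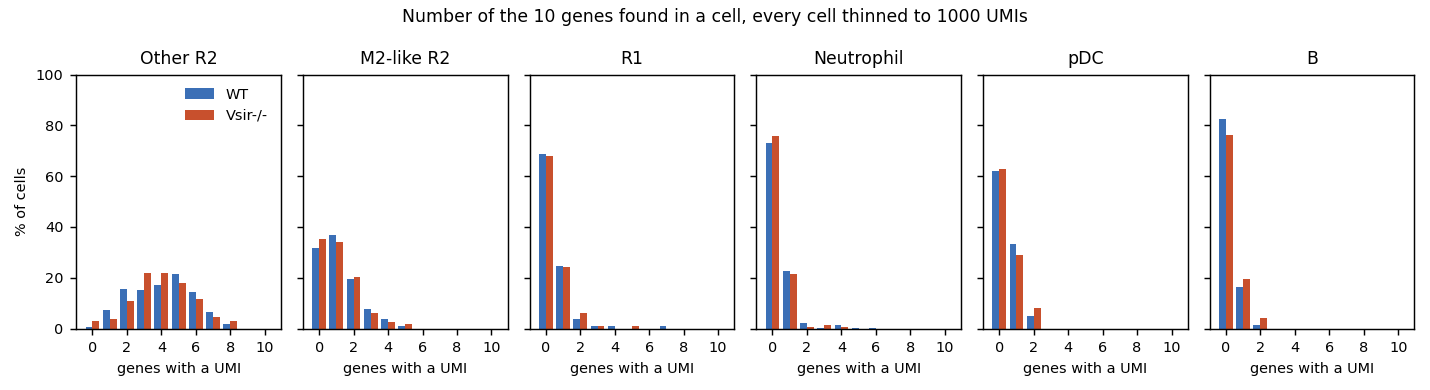
Share of cells (%) by the number of the 10 genes with at least 1 UMI, after each cell was thinned to 1000 UMIs, for the 5 clusters and for B cells, WT in blue and *Vsir-/-* in red. Other R2 centers on 4 genes, M2-like R2 on 0 and 1, and the other clusters on 0.

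Detection of single genes followed the levels only in part. *Gngt2* was found in 93.1% of Other R2 cells of each library, or in 74.4% and 80.3% after thinning, against 8.13% and 5.56% of thinned B cells. *Nr4a1* was found in 93.1% and 90.8% of Other R2 cells, and in 64.4% and 69.3% after thinning, against 10.3% and 11.1% of B cells. For *Ace*, the thinned shares were 37.2% and 29.9% in Other R2 against 0.317% and 0 in B cells, and for *Cd300e* 36.1% and 35.4% against 0 in both. *Fabp4* was the least frequent in the *Vsir-/-* library, in 25.0% of WT and 12.6% of *Vsir-/-* thinned Other R2 cells, although its CPM was not lower there. A single cell held 33 of its 225 UMIs in *Vsir-/-* Other R2.

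Whether Other R2 differed from M2-like R2 in the way nonclassical differ from classical monocytes was examined next. All 10 genes were at least 2-fold higher in Other R2 than in M2-like R2 in each library, with a median log2 ratio of 2.42 in WT and 2.78 in *Vsir-/-* cells. Of all genes tested, 8.75% and 7.81% were at least 2-fold higher and 7.89% and 8.72% at least 2-fold lower. The ratios ran from 1.08 for *Nr4a1* to 5.21 for *Cd300e* in the WT library, and from 1.43 to 6.76 for the same genes in the *Vsir-/-* library.

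A list of 19 other genes known from nonclassical monocytes went the same way, with 11 in the WT and 12 in the *Vsir-/-* library at least 2-fold higher in Other R2 and 0 lower. This list, too, was chosen with earlier results of these data known. *Spn*, the sialophorin CD43 used to sort these cells, was at 527 and 509 CPM in Other R2 against 89.7 and 68.1 CPM in M2-like R2. *Fcgr4*, an activating Fc receptor, was at 383 and 489 CPM against 59.2 and 70.4 CPM. *Cx3cr1*, the fractalkine receptor, was at 382 and 439 CPM against 228 and 236 CPM and did not reach 2-fold. *Klf2*, *Csf1r*, and *Cebpb*, a factor that acts upstream of *Nr4a1*, also stayed under 2-fold in both libraries. Of 12 classical monocyte genes, 11 in the WT and 8 in the *Vsir-/-* library were at least 2-fold lower in Other R2. The gene for coagulation factor XIII A, *F13a1*, was at 7.03 CPM in WT and at 0 in *Vsir-/-* Other R2, against 435 and 284 CPM in M2-like R2. *Clec4e*, which senses dying cells, was the one classical gene higher in Other R2, at 276 and 484 CPM against 148 and 242 CPM, and reached 2-fold in the *Vsir-/-* library.

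**Figure D3:**
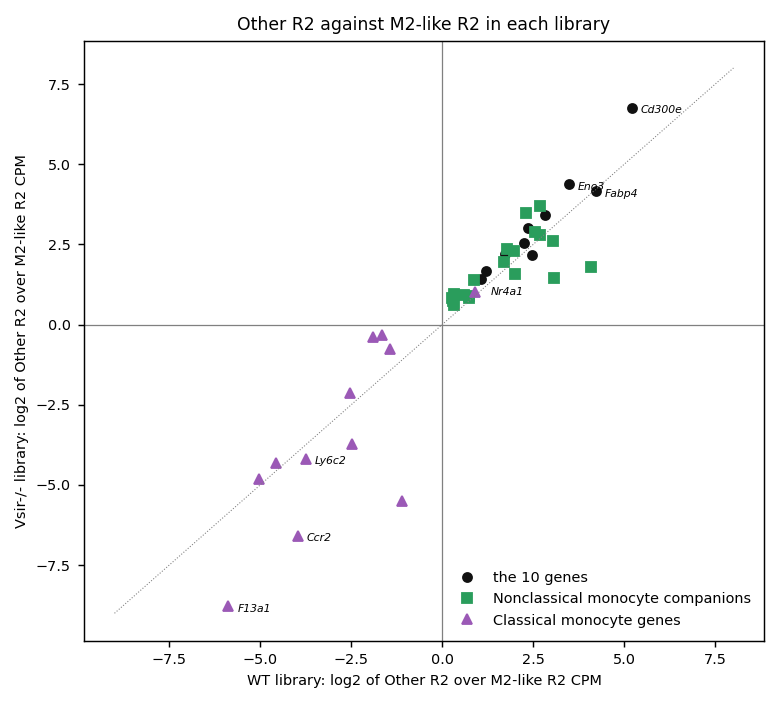
Log2 ratio of CPM in Other R2 over M2-like R2, WT library on the x axis and *Vsir-/-* library on the y axis, for the 10 genes (circles), 19 other nonclassical genes (squares), and 12 classical genes (triangles). The 10 genes lie between 1.08 and 6.76 on both axes, and 11 of the classical genes lie below 0 in both libraries.

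Close relatives of the 10 genes were not uniformly high in Other R2. In the WT library, 6 of 22 relatives with enough UMIs were at least 2-fold higher than in M2-like R2 and 4 lower, and in the *Vsir-/-* library 7 of 24 were higher and 3 lower. Beside *Cd300e*, the family members *Cd300ld* (350 and 445 CPM against 65.8 and 79.4 CPM) and *Cd300c2* (499 and 600.5 CPM against 194 and 235 CPM) were higher in Other R2. *Cd300lf* (23.4 against 55.1 CPM) and *Cd300lg* (2.34 against 41.4 CPM) were lower in WT Other R2. In the *Vsir-/-* library they were at 40.1 against 40.0 CPM and at 41.4 against 32.8 CPM. *Trem2*, a lipid receptor of macrophages in the TREM family like *Treml4*, was lower, at 9.37 and 3.88 CPM against 56.5 and 126 CPM. Of the same family, *Trem1* (78.8 and 97.1 CPM against 37.1 and 41.2 CPM) and *Trem3* (153 and 210 CPM against 49.2 and 36.4 CPM) were at least 2-fold higher.

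Outside Other R2, part of the transcripts lay in cells that held several of the genes, to a degree that differed by cluster and library. For this, 7 of the genes were counted per cell, without *Fabp4*, *Gngt2*, and *Nr4a1*, which were found in other cell types, and cells with at least 3 of the 7 were set apart, a class chosen after its values were seen. In the WT Neutrophil cluster, 20 of 524 cells (3.82%, 2.35% to 5.83%) held 359 of the cluster's 435 UMIs of the 7 genes. Of these, 6 held all 7 genes, 6 held exactly 6, and 6 held exactly 3, while 6 further cells held exactly 2 and 439 held 0. The 20 cells had a median of 9534 UMIs against 3502 in the rest, and the neutrophil marker list made up 170309 CPM in them against 278699 CPM. In the *Vsir-/-* Neutrophil cluster 1 of 158 cells was in the class, with 10 of 25 UMIs. Whether these are mixed droplets was not tested, and doublets were not removed here.

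In M2-like R2 the class was larger and less sharply set off. It held 117 of 456 WT cells with 1637 of 2012 UMIs of the 7 genes, and 35 of 168 *Vsir-/-* cells with 350 of 649 UMIs. Right at the limit, 43 WT cells held exactly 3 and 68 exactly 2 of the genes. The WT cells of the class had less *Ly6c2* (2377 against 3282 CPM) and *Ccr2* (647 against 1050 CPM) than the other M2-like R2 cells and more *Spn* (150 against 58.2 CPM), with a median of 11419 against 8753 UMIs. In the *Vsir-/-* library the same genes stood at 1433 against 1742, 534 against 1046, and 150 against 44.6 CPM, at medians of 10072 and 10076 UMIs. In R1, 6 of 116 WT cells held 102 of 143 UMIs of the 7 genes, and also 53 of the 111 *Nr4a1* UMIs of the cluster. In *Vsir-/-* R1, 9 of 237 cells held 105 of 262 UMIs, so most lay outside the class. The class had 0 of 21 WT pDC and 6 of 86 *Vsir-/-* pDC, the latter with 49 of 219 UMIs.

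The comparison of *Vsir-/-* with WT asks whether the level of the 10 genes differed in mice without VISTA, and it rests on 1 library each. In Other R2 none of the 10 genes differed by 2-fold, against 6.71% of all genes at least 2-fold higher and 9.52% at least 2-fold lower in the *Vsir-/-* library. The median log2 ratio of the 10 genes, *Vsir-/-* over WT, was 0.22, and that of all 7555 genes tested was −0.06. *Eno3* had the highest ratio with 0.55 (0.38 to 0.72), followed by *Gngt2* with 0.43 (0.34 to 0.53), *Adgre4* with 0.40 (0.20 to 0.60), and *Nr4a1* with 0.38 (0.25 to 0.51). *Treml4* had 0.27 (0.07 to 0.48). The counting intervals of *Fabp4* (0.16), *Cd300e* (0.13), *Ear2* (0.06), and *Ace* (−0.12) held 0, and *Hfe* was lower in *Vsir-/-* cells, at −0.36 (−0.64 to −0.09).

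Transcripts of other cell types moved with this comparison. In WT Other R2, B cell markers summed to 1288 CPM, T cell markers to 320 CPM, and neutrophil markers to 4011 CPM, against 7.76, 6.47, and 229 CPM in the *Vsir-/-* library. At least 1 UMI of a T or B cell receptor gene was in 88 of 188 WT and 10 of 131 *Vsir-/-* cells. Without these cells, the 10 genes summed to 7715 CPM (WT) and 6952 CPM (*Vsir-/-*) of Other R2, the median log2 ratio was −0.24, and *Hfe* was at least 2-fold lower in the *Vsir-/-* library. This step also selects on depth. The WT cells left had a median of 3701 UMIs against 8345.5 in those removed, and the *Vsir-/-* cells 6017 against 6804.5. Conversely, kidney tubule markers summed to 2701 CPM in *Vsir-/-* Other R2 against 4.68 CPM in WT, and endothelial markers to 848 against 148 CPM. The dissociation response genes, such as *Fos* and *Jun*, immediate early genes as *Nr4a1* is, summed to 11775 against 8383 CPM. They did not all move the same way. By log2 ratio, *Fos* (0.78), *Fosb* (0.41), *Jun* (0.55), *Atf3* (1.82), *Dusp1* (1.17), *Hspa1a* (1.80), *Hspa1b* (1.49), and *Zfp36* (0.92) were higher. *Egr1* (−0.58), *Jund* (−0.58), *Ier2* (−0.30), *Ier3* (−1.05), and *Btg2* (−0.43) were lower, and *Junb* was at −0.04. The part of these transcripts in the ratios was not tested, other than by leaving out cells. Over the 14 alternatives run for these ratios, *Eno3*, *Adgre4*, and *Nr4a1* kept a ratio above 0, with lowest values of 0.28, 0.05, and 0.03. *Ace* and *Hfe* kept one below 0, with highest values of −0.06 and −0.25. *Treml4*, *Ear2*, *Cd300e*, *Fabp4*, and *Gngt2* changed sign in at least 1 alternative. Some of the 14 could not turn a sign here, since a changed UMI minimum leaves a ratio as it is and a larger pseudocount hardly moves it.

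In M2-like R2 the median log2 ratio was −0.18, against 0.01 over all genes. *Cd300e* was the only gene of the 10 to pass 2-fold there, lower in *Vsir-/-* cells at 3.58 against 10.2 CPM (log2 ratio −1.42, −3.04 to −0.28) from 6 and 45 UMIs, beside 7.61% of all genes lower and 8.11% higher. It passed the minimum of 20 UMIs only through the WT library, so nothing is read from that count. *Hfe* (−0.84, −1.22 to −0.49) and *Ace* (−0.77, −1.12 to −0.45) were lower as well, *Ear2* was higher (0.36, 0.11 to 0.60), and *Gngt2* and *Nr4a1* were at −0.04 and 0.03. Markers of other cells moved with this comparison. In WT and *Vsir-/-* M2-like R2, neutrophil markers were at 4603 and 261 CPM, resident macrophage markers at 4192 and 12397 CPM, and kidney tubule markers at 41.0 and 1899 CPM, and their part was not tested.

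In R1, 1 of 9 genes with at least 20 UMIs was at least 2-fold higher in the *Vsir-/-* library and 3 were at least 2-fold lower, beside 13.6% and 8.78% of all genes. The higher one was *Fabp4* (log2 ratio 5.15, 4.05 to 6.91, from 5 and 448 UMIs). The lower ones were *Ace* (−2.12, −3.24 to −1.13), *Eno3* (−1.88, −2.83 to −0.99), and *Nr4a1* (−1.57, −2.00 to −1.15). *Fabp4* passed the minimum only through the *Vsir-/-* library, and *Ace* and *Eno3* only through the WT library, so nothing is read from the counts. All of the lower genes rest on small counts except *Nr4a1* (111 and 86 UMIs). Of its 111 WT UMIs, however, 53 lay in the 6 cells described above. The other 110 WT cells had 95.7 CPM, against 47.6 CPM in the 228 *Vsir-/-* cells outside the class. In WT and *Vsir-/-* R1, classical monocyte genes were at 1590 and 445 CPM, neutrophil markers at 1779 and 141 CPM, and B cell markers at 1187 and 56.2 CPM. Kidney tubule markers were at 30.2 and 2775 CPM, and dissociation response genes at 10506 and 13044 CPM. The part of these transcripts in the ratios was not tested.

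In the Neutrophil cluster 8 of the 10 genes were at least 2-fold lower in *Vsir-/-* cells and 1, *Fabp4*, higher, beside 10.6% and 9.99% of all genes, and the median log2 ratio was −1.56 against −0.06. *Ace*, *Treml4*, *Ear2*, *Adgre4*, *Cd300e*, *Eno3*, and *Hfe* passed the minimum of 20 UMIs only through the WT library. Nothing is therefore read from the count or the median. *Ace* was at 32.2 CPM in WT and 2.57 CPM in *Vsir-/-* neutrophils, *Treml4* at 37.9 and 3.86 CPM, and *Adgre4* at 19.8 and 1.29 CPM. *Cd300e* had 32 UMIs in WT and 0 in *Vsir-/-* neutrophils, 3.34-fold lower when the zero is set to 3 counts. The upper limit of the counting interval of its log2 ratio was −1.36. *Nr4a1*, which neutrophils hold themselves, was at 229 and 233 CPM (0.03, −0.23 to 0.27). The WT values of the 7 genes rest largely on the 20 cells described above, which held 359 of their 435 WT UMIs. *Gngt2*, not among the 7, had 320 and 43 UMIs, at 129 and 55.3 CPM (−1.21, −1.72 to −0.76). The same 20 cells held 194 of its 320 WT UMIs. Outside the class it was at 56.3 CPM in WT and 45.5 CPM in *Vsir-/-* neutrophils. Dissociation response genes were at 11956 CPM in WT and 7781 CPM in *Vsir-/-* neutrophils, and kidney tubule markers at 11.3 and 4223 CPM.

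In the pDC cluster 7 of the 10 genes passed the minimum of 20 UMIs, with fitted ratios at least 2-fold higher in *Vsir-/-* cells for 5 and lower for 0, beside 11.9% and 10.1% of all genes. With 21 WT cells, *Treml4*, *Ear2*, *Fabp4*, *Eno3*, and *Hfe* passed that minimum only through the *Vsir-/-* library, so nothing is read from the count. *Treml4*, *Ear2*, and *Fabp4* had 0 UMIs in the 21 WT cells and 22, 50, and 112 in the 86 *Vsir-/-* cells. With the zeros set to 3 counts, they were 1.64-fold, 3.73-fold, and 8.35-fold higher. The lower limits of the counting intervals of their log2 ratios were 0.29, 1.55, and 2.74, so that the limit of *Treml4* lies under 2-fold. *Hfe* was at 34.0 and 93.0 CPM (1.38, 0.47 to 2.62) and *Eno3* at 7.56 and 20.3 CPM (1.13, −0.59 to 4.55), while *Nr4a1* was lower at 280 and 143 CPM (−0.97, −1.37 to −0.55). The list of conventional dendritic cell markers summed to 865 CPM in WT and 1468 CPM in *Vsir-/-* pDC. Its genes did not all move the same way. *Xcr1* was at 11.3 CPM in WT and 190 CPM in *Vsir-/-* cells and *Clec9a* at 26.4 and 109 CPM. *Cd209a*, given above, was not higher in *Vsir-/-* cells. The part of these markers in the result was not tested.

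**Figure D4:**
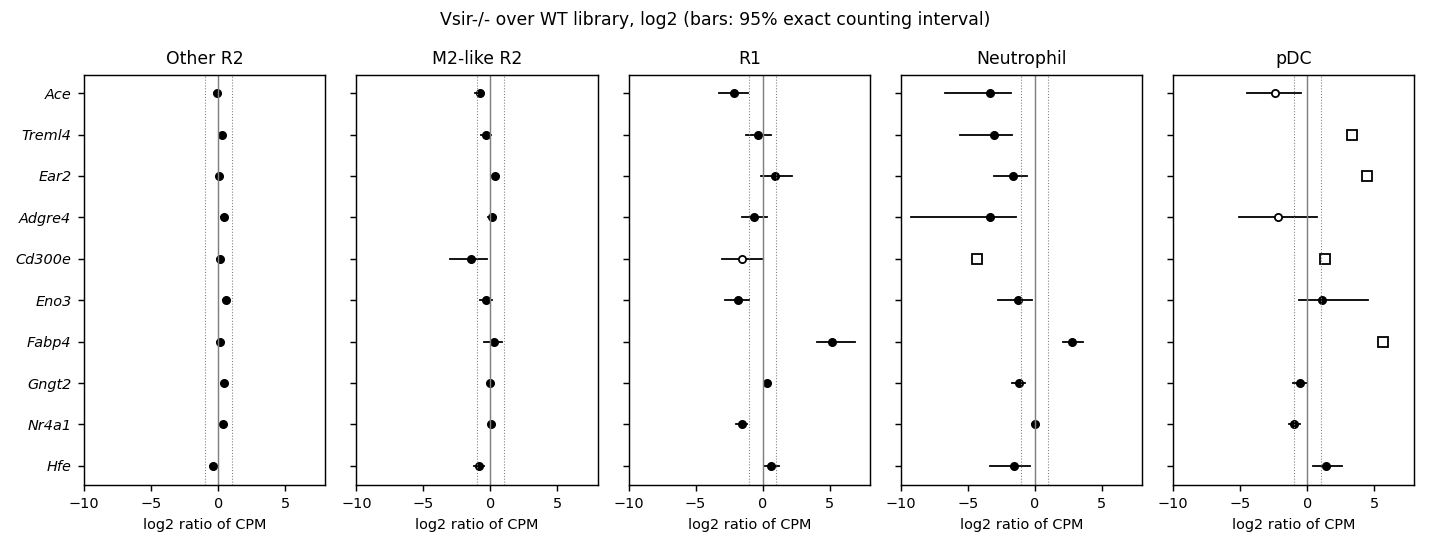
Log2 ratio of CPM, *Vsir-/-* over WT, for the 10 genes in the 5 clusters, with 95% exact counting intervals, where open circles have fewer than 20 UMIs, open squares have 0 UMIs in 1 library, and dotted lines mark 2-fold. The ratios lie between −0.36 and 0.55 in Other R2 and spread to both sides in R1, Neutrophil, and pDC.

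*Fabp4* stood apart from the other 9 genes in the *Vsir-/-* library in that its highest levels were outside the 5 clusters. They were 1171 CPM in Proliferating cells (WT 0.497), 492 CPM in CD4+ T cells named non-EM-like (WT 0.224), 385 CPM in 28 EM-like CD8+ T cells (WT 0), and 335 CPM in B cells (WT 0.861). These names were not matched by the markers throughout. The *Vsir-/-* cluster named non-EM-like CD4+ T held T cell markers at 399 CPM (WT 5498), kidney tubule markers at 18830 CPM (WT 0.898), and endothelial markers at 3535 CPM (WT 159). *Vsir-/-* Proliferating cells held tubule markers at 9099 CPM and endothelial markers at 5863 CPM, and *Vsir-/-* B cells 8923 and 2036 CPM. Across clusters of both libraries, its correlation with the mean of the other 9 genes was 0.34, against 0.76 to 0.96 for each of the others. Because capillary endothelium also expresses *Fabp4*, cells were divided by their UMIs of an endothelial list.

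In *Vsir-/-* R1, 434 of the 448 *Fabp4* UMIs were in the 51 cells with 2 or more endothelial UMIs, at 723 CPM. The 120 cells with 0 endothelial UMIs had 16.7 CPM, and the 84 such cells of WT R1 had 5.12 CPM from 2 UMIs. *Emcn*, an endothelial sialomucin, was at 381 CPM in *Vsir-/-* R1 and at 0 in WT R1, and the whole endothelial list was at 1694 and 67.6 CPM, with 8 of its 12 genes at 0 in WT. The same split gave 48 of 52 *Fabp4* UMIs in 18 cells of *Vsir-/-* Neutrophil, 106 of 112 in 31 cells of pDC, and 2245 of 2263 in 133 cells of the cluster named non-EM-like CD4+ T. In those clusters *Fabp4* moved with endothelial transcripts in the same cells. This was not particular to *Fabp4*. In the cluster named non-EM-like CD4+ T, the same 133 cells held 499 of 514 *Gngt2* and 86 of 120 *Hfe* UMIs. The levels in them were 206 and 35.5 CPM, against 6.10 and 16.8 CPM in *Vsir-/-* cells of that cluster with 0 endothelial UMIs. In *Vsir-/-* Proliferating cells, 108 cells held 781 of 796 and 139 of 152, at 233 and 41.4 CPM against 17.3 and 10.1 CPM. In *Vsir-/-* R1 the shares of these genes were smaller, at 193 of 439 and 48 of 125 UMIs. Their levels there, 321 against 271 CPM and 80.0 against 72.3 CPM, had overlapping intervals. The opposite order was found for *Hfe* in *Vsir-/-* pDC, at 46.5 against 140 CPM. It was also found for *Ace* in the *Vsir-/-* cluster named non-EM-like CD4+ T, at 4.54 against 16.8 CPM.

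In Other R2, *Fabp4* was found without endothelial transcripts too. Cells with 0 endothelial UMIs had *Fabp4* at 279 CPM in WT (131 UMIs in 96 cells) and 205 CPM in *Vsir-/-* (39 UMIs in 40 cells). Cells with 2 or more endothelial UMIs had 209 CPM (WT) and 383 CPM (*Vsir-/-*). In WT Other R2 the endothelial list was almost wholly *Pecam1* (109 CPM) and *Flt1* (32.0 CPM), with 7 of 12 genes at 0, whereas in *Vsir-/-* Other R2 *Plvap* (153 CPM) and *Emcn* (119 CPM), both at 0 in WT, were added. The plot of *Fabp4* by endothelial transcripts shows the difference.

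**Figure D5:**
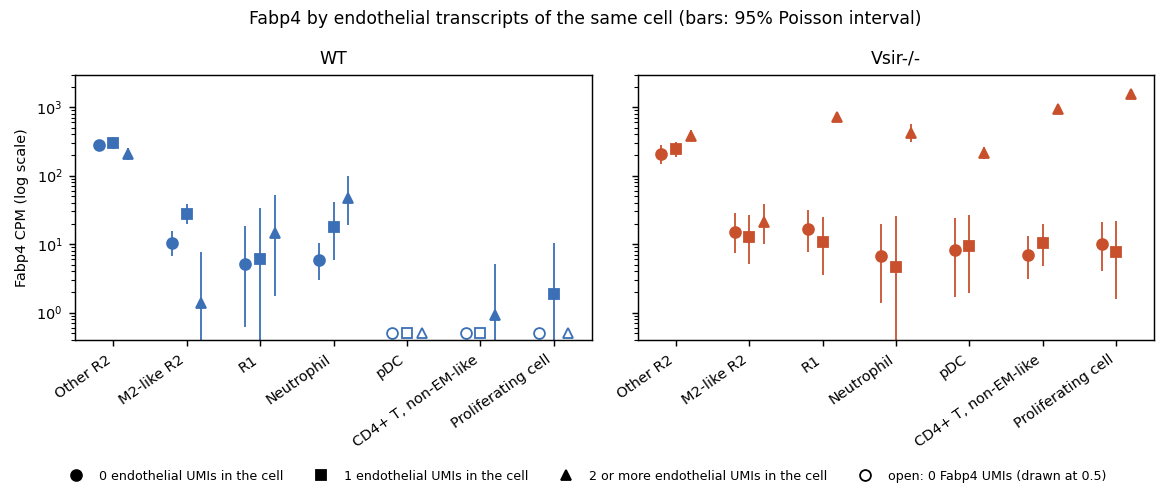
*Fabp4* in CPM on a log axis for cells with 0, 1, and 2 or more endothelial UMIs in 7 clusters, WT on the left and *Vsir-/-* on the right, with 95% Poisson intervals and open symbols for 0 *Fabp4* UMIs. In *Vsir-/-* R1, Neutrophil, pDC, and the clusters named CD4+ T and Proliferating, only the cells with 2 or more endothelial UMIs are high, whereas Other R2 is at 205 to 279 CPM without any.

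Genes with a pattern like the mean of the 10 genes were sought over 29 combinations of cluster and library with at least 20 cells, among 11239 genes, by Pearson correlation of log2(CPM + 10). These points share libraries, depth, and the cells clustered, and the values are a description. The nearest were *Ly6i* (0.95), *Skint3* (0.94), *Dpep2* (0.92), *Zfyve9* (0.92), *Nxpe4* (0.91), *Ldlrad3* (0.91), *Krt80* (0.90), and *Dusp16* (0.89). *Ly6i* was at 347 CPM in WT and 739 CPM in *Vsir-/-* Other R2, against 93.8 and 97.9 CPM in M2-like R2. Within the 10 genes, *Ace* and *Adgre4* were nearest to each other (0.98), as were *Cd300e* and *Eno3* (0.96), and *Treml4* was nearest to *Ear2* (0.96). The nearest gene to *Fabp4* was the endothelial receptor gene *Flt1* (0.92), that to *Nr4a1* was *Cebpb* (0.83), that to *Gngt2* was *Lrp1* (0.95), and that to *Hfe* was *Ccdc88a* (0.91).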

How the data were processed

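The material was 1 WT and 1 *Vsir-/-* single-cell library of nephritic kidney. By the submitters' processing notes, Cell Ranger (version 3.1.0), Seurat (version 3.2.3), R (version 4.0.3), and the build mm9 were used. The deposited matrix holds raw UMI counts, not normalized. A deposited table assigns each cell to a library and a cluster and lists the percent of mitochondrial UMIs (at most 10 here), as the authors computed it, which served for 1 alternative. Map coordinates in 2 columns were not used, and 0 columns of other samples were found. Removal of doublets is not given in the sources used here, and none was made.

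UMIs were summed by cluster and library. CPM, Poisson, Clopper-Pearson, and exact conditional intervals (95%) cover counting error only, since UMIs of 1 library are not replicates. Ratios had 0.5 UMI added to each sum and needed 20 UMIs over both libraries. A count of 0 was read as up to 3 counts. Cells were thinned to 1000 UMIs without replacement (seed 1), which left out 167 WT and 78 *Vsir-/-* cells of the whole libraries. The sum of the 10 genes rests on 7273 and 5342 UMIs in Other R2.

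All 10 genes are named, and the rule adds the 8 genes of nearest pattern to their mean and 1 per gene. The genes and lists were chosen with earlier results of these data known. Other genes named are markers or relatives from these lists, picked after their values were seen. Alternatives varied cell selection, thinning, denominator, weighting of cells, pseudocount, UMI minimum, centring, and fold. The calculation of the ratios was run on Poisson counts simulated from pooled cluster means with known folds. These counts hold only the counting error that the intervals assume. That run therefore checks the arithmetic and says nothing of differences between cells or libraries. No gene of the 10 overlaps another on its strand in GENCODE M21. On the opposite strand *Ace*, *Ear2*, *Adgre4*, and *Gngt2* overlap other genes, *Gngt2* with *Abi3*. Promoter windows came from RefSeq (GRCm38.p6), a build other than that of the files, and were used for sequence only. The work used Python 3.11.15, numpy 2.4.6, scipy 1.17.1, pandas 2.3.3, and matplotlib 3.10.9.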

Additional observations from a re-analysis of the deposited data

Results flagged for a closer look

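None of the differences below was tested, because each genotype has 1 library. Counting intervals of the log2 ratio, *Vsir-/-* over WT, lay wholly above 0 in 1 cluster and wholly below 0 in another for 7 of the 10 genes. The share of all genes with such a pattern was not computed, so nothing is read from that count. For 2 of the 7, *Treml4* (Other R2 0.27, Neutrophil −3.08) and *Adgre4* (Other R2 0.40, Neutrophil −3.37), the *Vsir-/-* Neutrophil cluster held 3 UMIs and 1 UMI. *Ear2*, *Eno3*, and *Hfe* also passed the minimum of 20 UMIs in Neutrophil only through the WT library. *Eno3* did so in R1 too, and *Hfe* passed it in pDC only through the *Vsir-/-* library. *Ear2* was higher in *Vsir-/-* M2-like R2 (0.36) and lower in *Vsir-/-* Neutrophil cells (−1.60). *Eno3* was higher in Other R2 (0.55) and lower in R1 (−1.88) and in Neutrophil (−1.29). *Gngt2* was higher in Other R2 (0.43) and R1 (0.35) and lower in Neutrophil (−1.21). *Nr4a1* was higher in Other R2 (0.38) and lower in R1 (−1.57). *Hfe* was higher in R1 (0.62) and pDC (1.38) and lower in Other R2 (−0.36), M2-like R2 (−0.84), and Neutrophil (−1.52).

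Outside the 5 clusters, some of the genes were found in the *Vsir-/-* library far above the WT level. *Fabp4* was at 335 CPM in B cells (WT 0.861), at 492 CPM in the cluster named non-EM-like CD4+ T (WT 0.224), and at 1171 CPM in Proliferating cells (WT 0.497). *Hfe* was at 26.1 CPM in that cluster (WT 0.224), which in the *Vsir-/-* library held kidney tubule markers at 18830 CPM and T cell markers at 399 CPM (WT 0.898 and 5498).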

How the results depend on the processing

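All 10 genes were highest in Other R2 under each alternative run, except that in the *Vsir-/-* library 9 were at no more than 5% mitochondrial UMIs and among cells with a *Ptprc* UMI, where *Fabp4* was higher in R1. The summed level there, 5677 CPM in WT and 6913 CPM in *Vsir-/-* cells, became 7433 and 8693 CPM without mitochondrially encoded and ribosomal protein genes in the denominator, 6354 and 6429 CPM as a mean over cells, and 6522 and 6669 CPM after thinning. It was 7715 CPM in WT without cells with a T or B cell receptor UMI, and in *Vsir-/-* cells 7161 CPM at no more than 5% mitochondrial UMIs and 7173 CPM without the tenth of cells richest in tubule and endothelial UMIs. The median log2 ratio in Other R2 (0.22) became −0.24 without cells with a receptor UMI, where 1 gene was 2-fold lower, and −0.024 as a mean over cells. The genes per thinned cell (4.07 in WT and 4.00 in *Vsir-/-*) became 5.88 and 5.93 at 2000 UMIs, 7.79 and 7.66 without thinning, and 4.66 in WT without cells with a receptor UMI.

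Counts of genes past 2-fold in the other clusters rest on few UMIs. Shares of all genes past the fold were not computed under any alternative. The counts below therefore show only how they depend on the setting, and nothing else is read from them. Leaving out cells with a receptor UMI kept 5 of 21 WT and 68 of 86 *Vsir-/-* pDC, and 46 of 116 and 160 of 237 R1 cells. In M2-like R2 it kept 155 of 456 and 142 of 168 cells, and in Neutrophil 366 of 524 and 147 of 158. In that setting, the lower genes were 2 in M2-like R2 (1 before) and 3 in Neutrophil (8 before). The higher genes were 2 in R1 (1 before) and 2 in pDC (5 before). As a mean over cells, 0 were lower in M2-like R2, 5 in Neutrophil, and 1 in pDC, and 2 were higher in R1. After thinning, 1 was lower in R1 (3 before), Neutrophil, and pDC (0 before), and 0 were higher in Neutrophil (1 before) and pDC. Without the tenth of cells richest in tubule and endothelial UMIs, 4 were lower in Neutrophil and 3 higher in pDC. With a minimum of 50 UMIs, 1 was lower in R1 and 3 higher in pDC, and with no minimum 2 were lower in pDC. A fold of 1.5 gave 3 lower in M2-like R2, 3 higher in R1, and 1 lower in pDC. Without the cell with most UMIs of each gene, pDC had 3 higher and 1 lower, and at no more than 5% mitochondrial UMIs 1 lower.

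Of the alternatives chosen after seeing the data, leaving out cells with 3 or more of the 7 genes gave 3 higher and 0 lower in M2-like R2, 1 lower in R1, 1 lower in Neutrophil, and 3 higher and 1 lower in pDC. That setting drops cells for holding the genes that are then counted, so fewer lower genes follow from the selection and nothing is read from them. Leaving out cells with 2 or more endothelial UMIs gave 2 lower in M2-like R2, 1 lower in R1, 0 higher in Neutrophil, and 2 higher and 1 lower in pDC. In that setting *Fabp4* in Neutrophil turned to a log2 ratio of −0.14 (7.28 CPM in WT and 6.03 CPM in *Vsir-/-*). Except where the setting itself removes cells or UMIs, the cause was not tested. No paired analysis was possible because each genotype has 1 library, and no replicate could be left out. The small counts of R1, Neutrophil, and pDC limit what can be said of single genes there.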
